A study of Mus musculus with 9 samples.

Results

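The genes described here are 10 dual-specificity phosphatase genes of the mouse: Dusp1, Dusp2, Dusp4, Dusp5, Dusp6, Dusp7, Dusp8, Dusp10, Dusp14 and Dusp16. They were chosen by gene symbol from the 37022 genes with a value, with earlier results of these data known. Each gene is represented by 1 transcript row, the one whose gene-body signal was highest on average across all 9 libraries. The libraries hold nascent RNA of mouse CD8 T cells in 3 groups of 3: acute stimulation (Acute), chronic stimulation (Chronic), and chronic stimulation with inhibition of the kinase MEK (ChronicMEKi). All groups are stimulated T cells, so no unstimulated control was compared. How and for how long the cells were stimulated, the inhibitor and its dose, and the strain and age of the mice are not given in the sources used here. New RNA was marked with 0.2 mM 5-ethynyl uridine, a uridine analogue, for 30 minutes, isolated and read as pairs of 100 bases. Nothing in the labels says that the 3 libraries of a group came from separate animals or cultures, so the p-values measure only the spread between these libraries, which may be technical.

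Dual-specificity phosphatases remove phosphate from both the threonine and the tyrosine in the activation loop of MAP kinases, which switches these kinases off. MEK is the kinase that puts those phosphates on ERK, and several of these phosphatase genes are themselves transcribed in response to ERK activity, which closes a negative feedback loop. In T cells the antigen receptor activates ERK, JNK and p38. The 10 genes fall by known preference into ERK-directed enzymes (Dusp5 in the nucleus, Dusp6 and Dusp7 in the cytoplasm), nuclear enzymes with a broader choice of kinase (Dusp1, Dusp2, Dusp4), enzymes directed at JNK and p38 (Dusp8, Dusp10, Dusp16), and Dusp14, a small atypical member without the kinase-binding domain that is known to restrain T cell receptor signalling.

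The deposited gene-body signal of a library summed to between 48601600 and 52216200. Depth in reads is unknown, so these sums do not show how large the libraries were. Rows resembling ribosomal RNA took 19.1% to 22.3% of this sum in the acute libraries, 34.2% to 40.6% in the chronic and 29.0% to 36.1% in the chronic MEKi libraries. The values below were scaled between libraries, and on that scale the median gene differed between groups by no more than 0.04 on the log2 scale. With division by library totals instead, the median log2 difference over all genes was −0.50 for chronic against acute, 0.14 for chronic MEKi against chronic and −0.37 for chronic MEKi against acute. With totals that leave out the rows resembling ribosomal RNA, these medians were −0.17, 0.03 and −0.16. All 8 CD8 T cell markers passed the signal filter. Their summed level was 35037 to 42850 in the acute, 24385 to 24750 in the chronic and 33407 to 35874 in the chronic MEKi libraries. The sum in chronic did not overlap the other groups, and Cd8a alone averaged 4061, 969 and 2881. The markers did not all move alike. Cd3d averaged 1266, 1244 and 1397 and Cd3g 1500, 1592 and 1530, while the others averaged lower in chronic than in acute. Cd4, the marker of the other main T cell class, passed the filter at 383 to 496 in the acute, 144 to 344 in the chronic and 101 to 141 in the chronic MEKi libraries, with no overlap between groups. Of 4 B cell markers 2 passed the filter (Cd79a and Pax5), with the 4 summing to 486 to 531, 168 to 205 and 149 to 417. Ms4a1, which encodes the B cell protein CD20, was under the filter. Of 4 myeloid markers only Csf1r passed, with sums of 102 to 120, 40.6 to 125 and 72.9 to 138, and neither of 2 natural killer cell markers passed. The part of these marker levels in the phosphatase values was not tested. In bulk samples such as these, fewer cells of a type and less RNA per cell cannot be told apart.

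The promoters differ in the sequence motifs they hold. They are shown beside the split of the genes below into those that fell when MEK was inhibited and those not called. Whether the motifs follow this split was not tested. The 150 bases printed come from RefSeq promoters of build GRCm38.p6, read 5′ to 3′ on the gene's strand. They end just before the annotated start, or for Dusp1 and Dusp5 47 and 36 bases further upstream, before an earlier GENCODE start nearby. The Dusp1 window precedes the compact Dusp1 transcript and lies inside the long transcript row used for its signal below. Capitals mark matches, on either strand, to the ETS core CCGGAAG, the cAMP response element TGACGTCA, the AP-1 site TGANTCA, the GC box GGGCGG, the TATA box TATAAA, the E-box CACGTG or the CArG box, the site bound by serum response factor. The shorter core TGACG, which the cAMP response element also contains, was counted but is not in capitals. The first 4 genes fell in the chronic MEKi libraries and the last 2 were not called there. Dusp14, which also fell, and Dusp10, which was not called, held only GC boxes and are not printed. For Dusp4, which fell, no promoter was matched.
Dusp6, chr10:99263081-99263230, plus strand: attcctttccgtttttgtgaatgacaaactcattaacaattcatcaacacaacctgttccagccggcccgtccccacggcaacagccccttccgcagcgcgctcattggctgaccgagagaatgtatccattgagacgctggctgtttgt
Dusp7, chr9:106368482-106368631, plus strand: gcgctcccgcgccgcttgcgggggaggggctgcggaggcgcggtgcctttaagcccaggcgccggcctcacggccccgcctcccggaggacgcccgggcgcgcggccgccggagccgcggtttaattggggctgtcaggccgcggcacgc
Dusp5, chr19:53528959-53529108, plus strand: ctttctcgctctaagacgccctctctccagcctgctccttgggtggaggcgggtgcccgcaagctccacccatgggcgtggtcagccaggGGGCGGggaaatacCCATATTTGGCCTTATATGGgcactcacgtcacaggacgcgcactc
Dusp16, chr6:134792629-134792778, minus strand: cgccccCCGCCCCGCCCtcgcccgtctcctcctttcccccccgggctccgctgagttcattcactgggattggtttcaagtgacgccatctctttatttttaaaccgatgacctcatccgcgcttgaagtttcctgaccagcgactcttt
Dusp1, chr17:26508520-26508669, minus strand: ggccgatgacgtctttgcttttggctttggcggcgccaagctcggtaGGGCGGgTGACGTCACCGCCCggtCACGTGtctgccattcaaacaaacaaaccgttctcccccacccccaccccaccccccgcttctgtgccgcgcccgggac
Dusp2, chr2:127336009-127336158, plus strand: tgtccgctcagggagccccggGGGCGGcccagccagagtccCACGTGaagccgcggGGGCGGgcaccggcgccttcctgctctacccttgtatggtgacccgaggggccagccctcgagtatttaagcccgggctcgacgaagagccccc

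In the whole window of 250 bases before the start, Dusp5 held 2 adjacent CArG boxes, at −82 to −73 and −72 to −63 from the start, and at least 1 such box was present in 1.47% of 32851 promoters. No other matched member held a CArG box. Dusp1 held a full cAMP response element at −143 to −136, a motif found in 1.55% of promoters, beside 3 GC boxes and an E-box, and Dusp8 held 2 such elements. GC boxes were present in 7 of the 9 matched members and in 32.7% of all promoters, the core TGACG in 4 of 9 and in 17.8%, and the E-box in 2 of 9 (Dusp1 and Dusp2) and in 6.02%. The ETS core (6.91% of promoters), the AP-1 site (6.75%) and the TATA box (12.4%) were in 0 of the 9. No searched motif matched in Dusp6 or Dusp7. A match is a match of letters only, and none was tested for binding.

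The first question was how transcription of these genes differs between acute and chronic stimulation, and the second how much of the chronic level is present when MEK is inhibited. Of the 10 genes, 9 passed the signal filter (50 or more in 3 or more libraries) and were tested with limma among 15942 genes, with Benjamini-Hochberg adjustment over all of them and a threshold of 0.05. Chronic against acute, 4 of the 9 rose (Dusp4, Dusp5, Dusp14, Dusp16) and 0 fell. Of all genes tested, 33.9% were called, 18% as higher and 15.9% as lower, beside 44.4% of the 9 members, so the members' share lay not far from that background. Chronic MEKi against chronic, 0 of the 9 rose and 6 fell (Dusp4, Dusp5, Dusp6, Dusp7, Dusp14, Dusp16), where 17.6% of all genes were called, 9.93% as higher and 7.65% as lower. Chronic MEKi against acute, 3 rose (Dusp4, Dusp5, Dusp16) and 2 fell (Dusp6, Dusp7), where 25.8% of all genes were called, 14.4% as higher and 11.5% as lower. The median log2 difference of the 9 was 0.24, −0.49 and 0.42 in these comparisons, beside −0.02, 0.04 and 0.00 over all genes tested. The 3 comparisons share libraries, so they are not independent of each other. With library totals in place of the scale factors, the same thresholds gave 4 higher and 2 lower for chronic against acute, with Dusp6 (log2 difference −0.55, adjusted p = 0.00719) and Dusp7 (−0.58, adjusted p = 0.0023) as the lower ones. They gave 0 higher and 3 lower for chronic MEKi against acute.

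**Figure D1:**
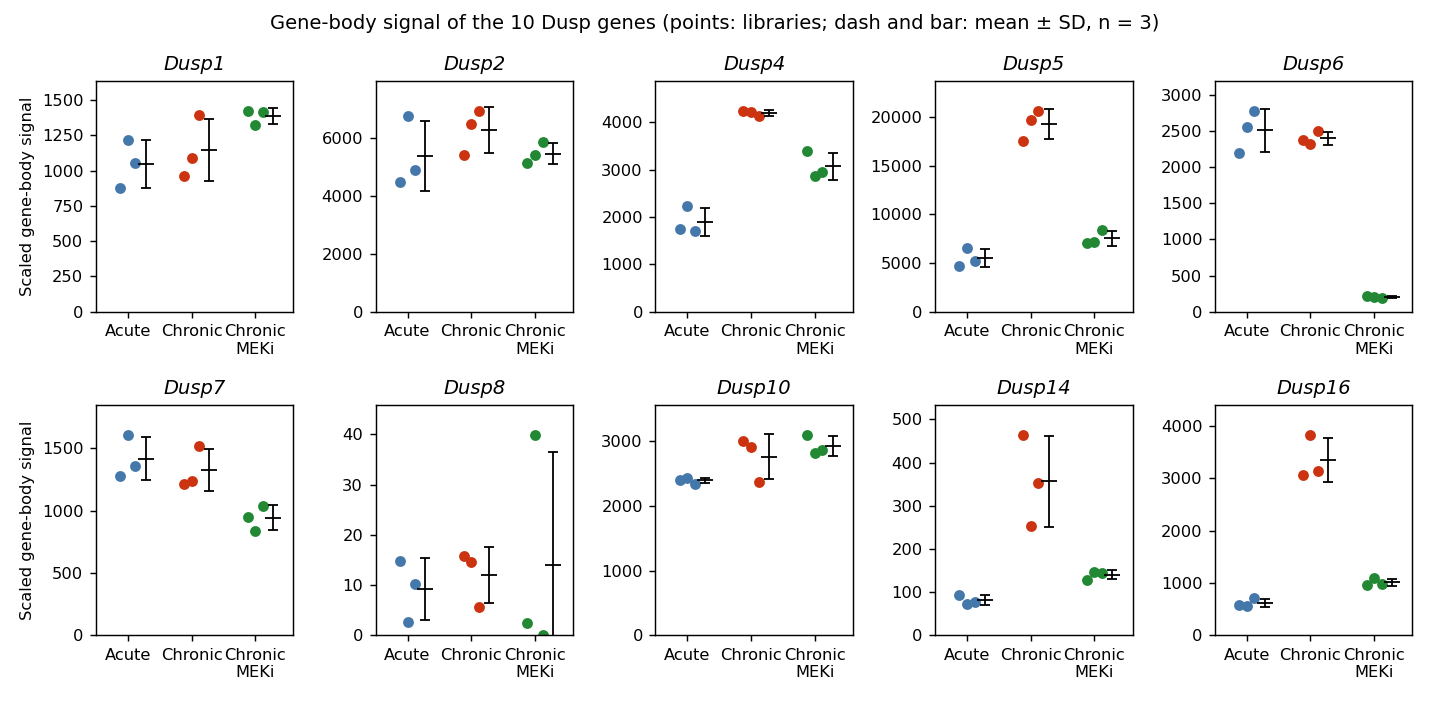
Scaled gene-body signal of each gene in every library (points), with the mean and SD of the 3 libraries of a group (dash and bar); each panel has its own axis from 0. Dusp5 and Dusp16 are high in the chronic libraries alone, Dusp6 is low in the chronic MEKi libraries alone, and Dusp8 lies under 50 in all 9.

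Dusp6 encodes the cytoplasmic phosphatase most selective for ERK (chr10:99263231-99267489, plus strand). Its gene-body signal was 2194, 2549 and 2772 in the acute libraries, 2379, 2315 and 2491 in the chronic, and 211, 208 and 193 in the chronic MEKi libraries. The acute and chronic libraries overlapped, and the chronic MEKi libraries lay far under all 6 others. The log2 difference between chronic and acute was −0.06, with a 95% interval of −0.34 to 0.22 (limma adjusted p = 0.766). With MEK inhibited Dusp6 kept 8.51% of its mean chronic signal (2395 ± 89.2 to 204 ± 9.69, SD, n = 3) and 8.13% of its acute signal, with log2 differences of −3.52 and −3.58 (SE 0.132; limma adjusted p = 5.233e-12 and 5.915e-12). Ranked by log2 difference from the lowest, Dusp6 was 26th of 15942 genes against chronic and 8th against acute.

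Dusp7, the other cytoplasmic ERK-directed enzyme measured here (chr9:106368632-106375724, plus strand), also fell with MEK inhibited. The signal was 1274, 1607 and 1361 in the acute, 1213, 1240 and 1516 in the chronic, and 952, 839 and 1036 in the chronic MEKi libraries. All 3 chronic MEKi libraries lay below the 6 others, while acute and chronic overlapped. Chronic MEKi signal was 71.2% of chronic (log2 difference −0.49, SE 0.140, limma adjusted p = 0.0214) and 66.7% of acute (−0.58, adjusted p = 0.00465). Chronic against acute the difference was −0.10, with a 95% interval of −0.39 to 0.20. The call against chronic was near the threshold. It ended under library totals (limma adjusted p = 0.093) and the deposited scale (0.12), without the signal filter (0.105) and without the variance trend and robust estimation (0.0662). It also ended with scale factors from all genes (0.0567), without the chronic replicate 3 (0.0872) and without the chronic MEKi replicate 2 (0.0936).

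Dusp5, the nuclear ERK phosphatase (chr19:53529109-53542431, plus strand, overlapping the minus-strand gene AC137853.2), is known as an early target of ERK signalling. It gave 4747, 6510 and 5184 in the acute, 17584, 19668 and 20620 in the chronic, and 7080, 7136 and 8363 in the chronic MEKi libraries. The groups did not overlap, and the chronic MEKi libraries lay between the others, close above the acute. Dusp5 rose 3.52-fold from acute to chronic (log2 difference 1.82, SE 0.111, limma adjusted p = 4.798e-10). It fell to 39.0% of the chronic level with MEK inhibited (−1.36, adjusted p = 6.827e-08). Against acute the chronic MEKi level was 1.37-fold higher (0.47, adjusted p = 0.00434). That last call ended under library totals (log2 difference 0.08, limma adjusted p = 0.628), the deposited scale (0.464) and without the filter (0.113). It also ended without the variance trend and robust estimation (0.0583), without the acute replicate 1 (0.0788) and without the acute replicate 3 (0.0519). Because the use of strand in the authors' counting is not given in the sources used here, reads of AC137853.2 cannot be told apart from those of Dusp5.

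Dusp4, a nuclear enzyme that acts on ERK and JNK (chr8:34807297-34819894, plus strand), gave 1745, 2233 and 1697 in the acute, 4234, 4217 and 4124 in the chronic, and 3383, 2857 and 2959 in the chronic MEKi libraries. The groups were separate, with chronic MEKi between acute and chronic. Dusp4 rose 2.22-fold in chronic against acute (log2 difference 1.16, SE 0.113, limma adjusted p = 2.254e-07). With MEK inhibited the signal fell to 73.1% of chronic (−0.45, adjusted p = 0.0078) and stayed 1.62-fold above acute (0.70, adjusted p = 0.0001217). The fall was no longer called under library totals (limma adjusted p = 0.0959), the deposited scale (0.125), without the filter (0.0712) or without the variance trend and robust estimation (0.0613). The excess over acute was not called under library totals (0.0733).

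Dusp2, the phosphatase first known from activated T cells, showed no called difference (chr2:127336159-127338376, plus strand). The signal was 4483, 6753 and 4888 in the acute, 5410, 6489 and 6925 in the chronic, and 5123, 5406 and 5848 in the chronic MEKi libraries, and the 3 groups overlapped. The log2 difference was 0.24 for chronic against acute (95% interval −0.04 to 0.52), −0.20 for chronic MEKi against chronic (−0.48 to 0.09) and 0.04 for chronic MEKi against acute. The acute replicate 2 was the highest acute library, and without it the chronic libraries were called higher (0.42, limma adjusted p = 0.00685). Under library totals the first value was −0.25, and the last was −0.34 and called (adjusted p = 0.0458).

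Dusp1, an immediate early gene whose product acts on p38, JNK and ERK, needs care over its row. The row chosen by the rule spans 56.5 kb (chr17:26505591-26562128, minus strand) and runs through several other genes into the start of Ergic1 on the plus strand, while a compact transcript spans 2.93 kb (chr17:26505590-26508519). In the chosen row the signal was 875, 1215 and 1052 in the acute, 960, 1086 and 1392 in the chronic, and 1422, 1323 and 1418 in the chronic MEKi libraries. Acute and chronic overlapped, as did chronic and chronic MEKi, while chronic MEKi lay above acute in all 3 libraries. None of the differences was called: 0.12 for chronic against acute (95% interval −0.20 to 0.45), 0.29 for chronic MEKi against chronic (−0.03 to 0.61, limma adjusted p = 0.228) and 0.42 for chronic MEKi against acute (adjusted p = 0.0555). In the compact row, used after seeing the data, the log2 differences were −0.16, 0.50 (adjusted p = 0.0966) and 0.34 (adjusted p = 0.233), again with no call, and the first value has the other sign. The difference from acute in the chosen row was near the threshold and was called in a fit of the acute and chronic MEKi libraries only (adjusted p = 0.0334), with a higher signal filter (0.0466), and without the acute replicate 2 (0.0386), the chronic replicate 1 (0.0417) or the chronic replicate 3 (0.0292). In either row, Dusp1 was the member with the highest, though uncalled, difference between chronic MEKi and chronic.

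**Figure D2:**
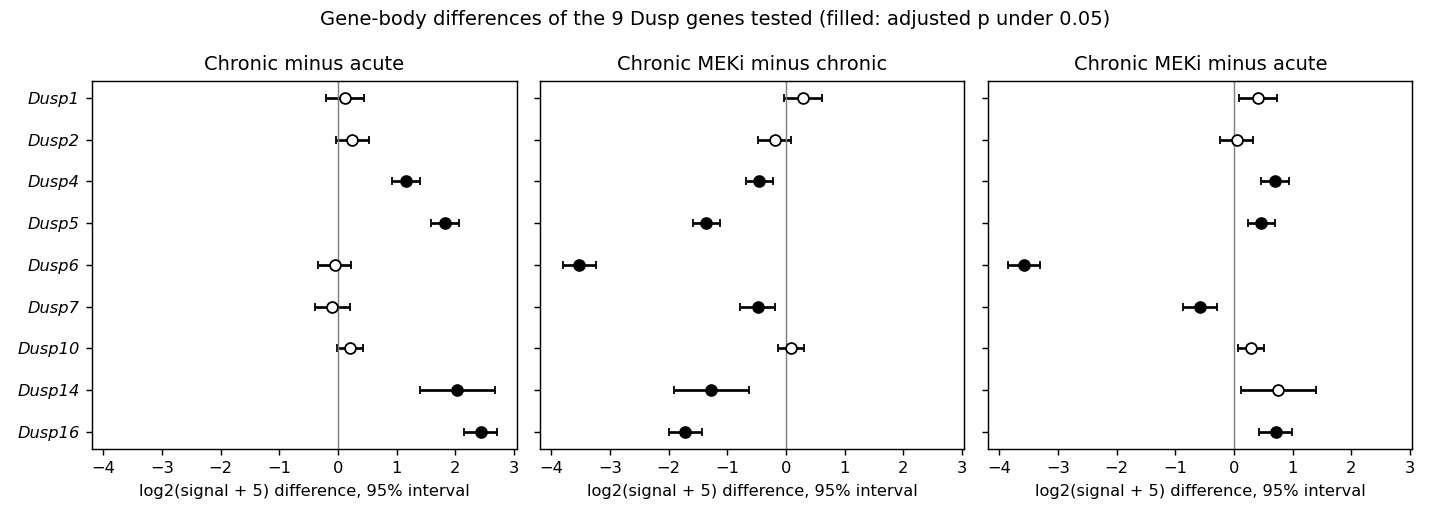
Difference in log2(signal + 5) of the gene body for the 9 genes tested, with its 95% interval; filled circles passed the adjusted p threshold of 0.05. Dusp4, Dusp5, Dusp14 and Dusp16 lie to the right in chronic minus acute and to the left in chronic MEKi minus chronic, and Dusp6 lies at −3.52 in the latter.

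Among the enzymes directed at JNK and p38, Dusp16 stood highest by fold (chr6:134715473-134792625, minus strand, overlapping Gm36328 on the plus strand). Its signal was 583, 563 and 707 in the acute, 3071, 3831 and 3146 in the chronic, and 960, 1091 and 982 in the chronic MEKi libraries. No library of one group reached into another, and the chronic MEKi libraries sat between the others, nearer the acute. The 5.42-fold rise from acute to chronic was the largest of the 9 (log2 difference 2.43, SE 0.135, limma adjusted p = 1.373e-10). With MEK inhibited the signal fell to 30.2% of chronic (−1.72, adjusted p = 3.824e-08) and was above acute by 0.71 (adjusted p = 0.00063). The excess over acute was not called under library totals (adjusted p = 0.12) or the deposited scale (0.0754).

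Dusp10, the other expressed enzyme of this class (chr1:184034381-184075636, plus strand), gave 2404, 2430 and 2344 in the acute, 2999.8, 2916 and 2363 in the chronic, and 3097, 2815 and 2867 in the chronic MEKi libraries. The chronic replicate 3 lay among the acute libraries and the other two lay near the chronic MEKi libraries. No difference was called: 0.20 for chronic against acute (95% interval −0.02 to 0.42), 0.09 for chronic MEKi against chronic (−0.13 to 0.31) and 0.29 for chronic MEKi against acute (limma adjusted p = 0.0529), where the groups did not overlap. Without the chronic replicate 3, chronic was called higher than acute (0.31, adjusted p = 0.0195), and so was chronic MEKi (adjusted p = 0.0161). Chronic MEKi was also called higher than acute in a fit of those groups only (adjusted p = 0.0207), with a higher signal filter (0.0464) and without the chronic replicate 1 (0.0458). Under library totals the chronic against acute value was −0.29 and that of chronic MEKi against acute −0.094. Dusp8, also directed at JNK and p38 (chr7:142079490-142095272, minus strand), gave 14.7, 2.62 and 10.2 in the acute, 15.8, 14.5 and 5.62 in the chronic, and 2.40, 39.9 and 0 in the chronic MEKi libraries. It reached the filter in 0 libraries and was not tested.

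Dusp14, the atypical member (chr11:84048041-84068801, minus strand), gave 94.1, 72.1 and 77.5 in the acute, 464, 253 and 353 in the chronic, and 128, 148 and 145 in the chronic MEKi libraries. The groups did not overlap although the chronic libraries spread widely. Dusp14 rose 4.39-fold in chronic against acute (log2 difference 2.03, SE 0.304, limma adjusted p = 3.939e-05) and fell to 39.3% of chronic with MEK inhibited (−1.28, adjusted p = 0.00597). Chronic MEKi against acute the difference was 0.76 (limma adjusted p = 0.0778) and was not called, though the groups did not overlap. Without the variance trend and robust estimation it was called (adjusted p = 0.0414).

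Levels of different genes were compared per kilobase of the transcript's span. In the acute libraries the order was Dusp2 (2423 ± 546 signal per kb, SD, n = 3), Dusp6 (588 ± 68.4), Dusp5 (411 ± 68.9), Dusp7 (199 ± 24.3), Dusp4 (150.2 ± 23.6) and Dusp10 (58.0 ± 1.07), followed by Dusp1, Dusp16, Dusp14 and Dusp8 between 18.5 and 0.582. In the chronic libraries Dusp2 (2829 ± 352) was followed by Dusp5 (1448 ± 117) and Dusp6 (562 ± 20.9), with Dusp4 (333 ± 4.70) above Dusp7 (187 ± 23.7). In the chronic MEKi libraries Dusp6 was at rank 6 (47.8 ± 2.27), below Dusp2 (2461 ± 165), Dusp5 (565 ± 54.4), Dusp4 (243 ± 22.1), Dusp7 (133 ± 13.9) and Dusp10 (70.9). Neighbours in each order did not overlap in their libraries, except Dusp1 and Dusp14 in chronic. The order depends on the length used. Per kb of spliced length, Dusp5 was above Dusp2 in chronic (7801 against 3880, with no overlap), both overlapped in chronic MEKi (3043 and 3376), and Dusp6 was at rank 9 in chronic MEKi (86.4). Over its compact transcript Dusp1 had 226 ± 50.9, 203 ± 54.4 and 282 ± 11.9 signal per kb in acute, chronic and chronic MEKi, which placed it at ranks 4, 5 and 3.

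**Figure D3:**
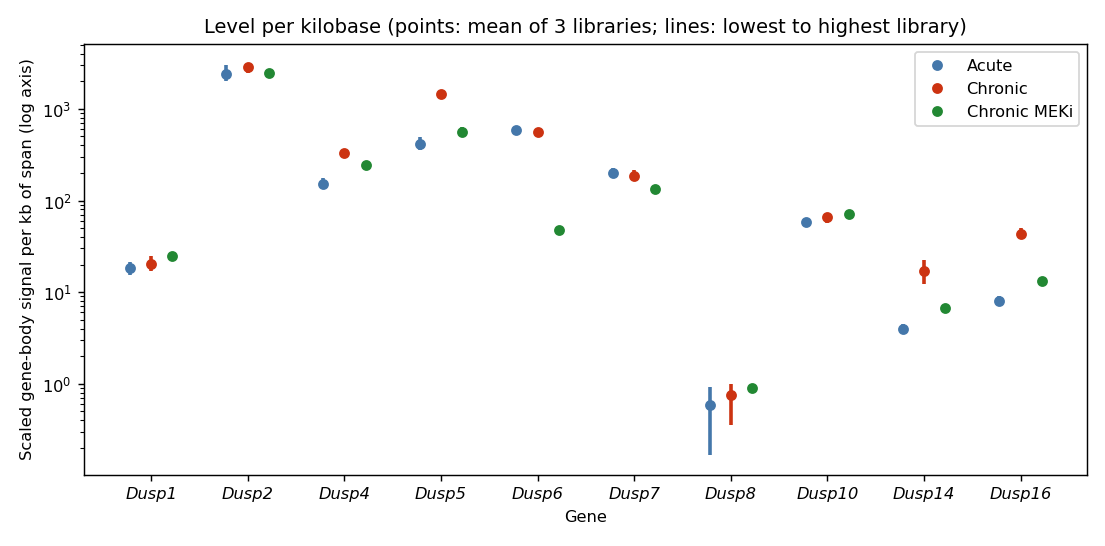
Scaled gene-body signal per kb of span on a log axis, as the mean of 3 libraries (points) and the lowest to highest library (lines; no line for Dusp8 in chronic MEKi, where 1 library is at 0). On this scale Dusp2 is highest in every group, and Dusp6 is at 588 in acute and 47.8 in chronic MEKi.

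The make-up of the summed phosphatase signal followed from these levels. Dusp2 gave 62.4%, 51.3% and 69.0% of the 10 genes' summed signal per kb in acute, chronic and chronic MEKi, and Dusp5 gave 10.7%, 26.3% and 15.8%. Dusp6 gave 15.4%, 10.3% and 1.35%. Dusp4, Dusp5 and Dusp6, the 3 genes best known as targets of the ERK pathway, together gave 30.02% ± 2.44, 42.6% ± 1.63 and 24.02% ± 0.811 (SD, n = 3). Dusp4 gave 3.90%, 6.08% and 6.85%. Dusp1 entered these sums through its long row and gave 0.48%, 0.37% and 0.69%. Shares with its compact transcript, at 226, 203 and 282 signal per kb, were not computed. The shares depend on the length used, since with spliced length the 3 genes gave 42.5%, 60.4% and 42.4%. With that length Dusp5 was above Dusp2 in chronic (7801 against 3880 per kb). These shares are descriptions without a test.

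In the second deposited table, read here as the stretch near the transcription start where polymerase pauses, 7 of the 10 genes passed the same filter. Dusp8, Dusp14 and Dusp16 did not, Dusp16 giving 18.5, 19.0 and 23.7 in the acute, 35.6, 104 and 109 in the chronic, and 24.2, 18.1 and 14.4 in the chronic MEKi libraries. Chronic against acute, 2 of the 7 rose (Dusp4 and Dusp5) and 0 fell, where 10.7% of 7678 genes were called, 5.37% as higher and 5.35% as lower. Chronic MEKi against chronic, 2 fell (Dusp5 and Dusp6) and 0 rose, where 3% of genes were called, 1.56% as higher and 1.43% as lower. Chronic MEKi against acute, 1 rose (Dusp5) and 1 fell (Dusp6), where 5.95% were called, 3.44% as higher and 2.51% as lower.

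Dusp6 had pause-region signals of 249.9, 361 and 355 in the acute, 222, 281 and 245 in the chronic, and 15.5, 34.0 and 14.4 in the chronic MEKi libraries. The low group was again separate from all other libraries, with a log2 difference of −3.35 against chronic (limma adjusted p = 4.391e-08) and −3.70 against acute (adjusted p = 1.806e-08). The 6 libraries of Dusp6 that reached 50 were the acute and chronic ones. The filter thus admitted its pause region through the groups where it was high and may have favoured its fall. Dusp5 gave 329, 421 and 216 in the acute, 1549, 1553 and 1439 in the chronic, and 567, 546 and 527 in the chronic MEKi libraries. These groups did not overlap, and the log2 differences were 2.26 for chronic against acute (adjusted p = 5.304e-09), −1.46 for chronic MEKi against chronic (adjusted p = 2.764e-05) and 0.80 for chronic MEKi against acute (adjusted p = 0.0158). Dusp4 gave 162, 134 and 208 in the acute, 541, 274 and 315 in the chronic, and 321, 221 and 164 in the chronic MEKi libraries. It rose by 1.10 in chronic (adjusted p = 0.00917), and its chronic MEKi value differed from chronic by −0.66 without a call (adjusted p = 0.263). The rise of Dusp4 rested on single libraries, with an adjusted p of 0.0528 without the acute replicate 2 and 0.0916 without the chronic replicate 1, and it was not called under library totals (0.269). The last call of Dusp5 ended without the acute replicate 3 (adjusted p = 0.128) and when any 1 chronic MEKi library was left out (0.0501 to 0.0708).

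**Figure D4:**
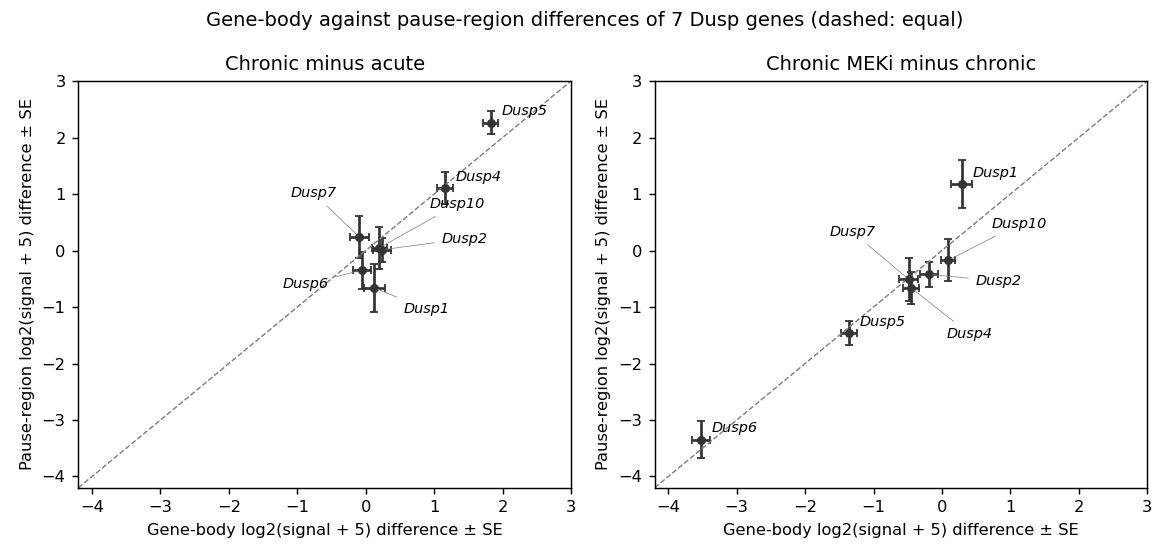
Pause-region difference (vertical) against gene-body difference (horizontal) in log2(signal + 5) for the 7 genes that passed both filters, with SE bars; the dashed line marks equal change. Dusp5 and Dusp4 lie near the line at upper right in chronic minus acute, and Dusp6 and Dusp5 lie near it at lower left in chronic MEKi minus chronic; the Dusp1 values come from the long row, whose pause region is not at the start of the compact transcript.

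The ratio of the regions, a measure of pausing, was tested as the difference of the log2 values. In each comparison 0 of the 7 members tested and 0% of 7413 genes were called by limma, while 749, 394 and 591 genes, and none of the members, had an unadjusted p under 0.05. For chronic MEKi against chronic the difference was 0.18 for Dusp6 (95% interval −0.49 to 0.84, adjusted p = 0.986) and −0.10 for Dusp5 (−0.70 to 0.49, adjusted p = 0.998). The intervals are wide, and that of Dusp6 rests on chronic MEKi pause-region signals under 50, so equal pausing was not shown. Pause-region signal was 12.8% ± 1.39, 10.5% ± 1.51 and 10.6% ± 5.15 of gene-body signal for Dusp6 in acute, chronic and chronic MEKi, and 5.87% ± 1.48, 7.90% ± 0.916 and 7.33% ± 0.898 for Dusp5 (SD, n = 3). The median gene had 7.34%, 7.44% and 7.29%.

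Members also differed in how their signal ran across libraries. Over the 9 libraries Pearson's r of log2 signal was 0.972 between Dusp5 and Dusp16, 0.937 between Dusp14 and Dusp16, 0.921 between Dusp5 and Dusp14 and 0.902 between Dusp4 and Dusp5. Dusp6 was like Dusp7 (r = 0.877) and little like Dusp5 (0.255) or Dusp16 (0.219). These are descriptions over libraries that share their 3 groups. The 5 genes most like Dusp6 among 12581 ranked were Dcun1d3 (r = 0.997), Stambpl1 (0.996), Fam20a (0.989), Gem (0.987) and Spred1 (0.985), the last an inhibitor of the Ras to ERK cascade. Their log2 differences between chronic MEKi and chronic were −1.33, −0.75, −2.22, −2.51 and −2.58, each smaller in size than that of Dusp6. The 5 genes most like Dusp16 were Prdm1 (0.994), Csf2 (0.993), Irf4 (0.993), Srgap3 (0.992) and Ptpn5 (0.991). Prdm1 and Irf4 encode transcription factors of activated T cells, and Csf2 encodes the cytokine GM-CSF and overlaps Gm12223. Chronic against acute, Prdm1 differed by 2.80 and Irf4 by 2.17, and chronic MEKi against chronic by −1.81 and −1.47.

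**Figure D5:**
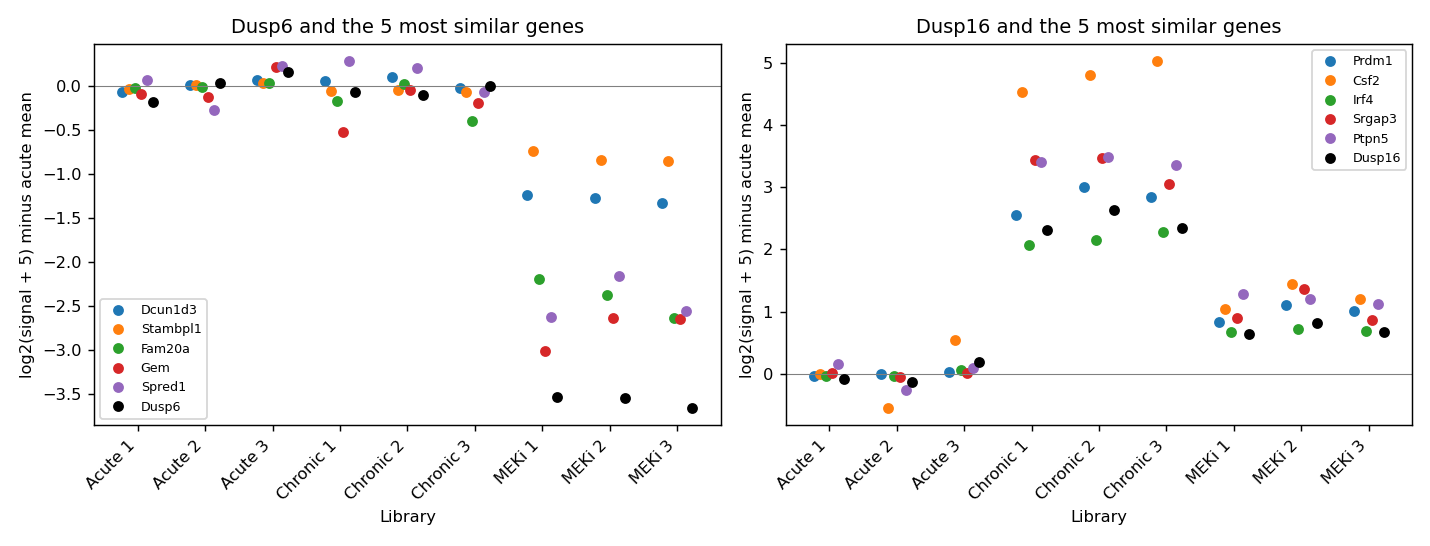
Gene-body log2(signal + 5) minus the gene's acute mean in each of the 9 libraries for Dusp6 (left) and Dusp16 (right), in black, with the 5 genes of highest Pearson r in colour. The Dusp6 group is near 0 in acute and chronic and low in chronic MEKi, and the Dusp16 group is high in chronic with chronic MEKi values between acute and chronic.

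Other genes of the pathway were read as lists, beside the 18% of all genes called higher and 15.9% lower in chronic against acute, and the 9.93% higher and 7.65% lower in chronic MEKi against chronic. With so few genes in a list, several of the counts lie near these shares. The lists too were chosen with earlier results of these data known. Of 16 other genes of the dual-specificity phosphatase family, 8 were tested, of which 3 rose and 1 fell in chronic against acute. In chronic MEKi against chronic 1 fell, Dusp3, an atypical phosphatase (log2 difference −1.16, limma adjusted p = 0.0234). All 3 tyrosine phosphatases that bind MAP kinases were tested: 2 rose in chronic, and with MEK inhibited 1 fell, Ptpn5, from 2507 ± 103 to 539 ± 30.2 (−2.21, adjusted p = 1.453e-08). Of 10 MAP kinase genes 8 were tested, and 3 rose and 1 fell in chronic. None of them was called in chronic MEKi against chronic, where Mapk14, the gene of p38 alpha, differed by −0.30 (limma adjusted p = 0.057). Of the 7 kinases that activate MAP kinases, 2 rose and 1 fell in chronic, and 1 fell with MEK inhibited, Map2k6, a kinase of p38 (−0.64, adjusted p = 0.0287).

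Of 21 further genes known to respond to ERK, 17 were tested. Chronic against acute, 8 rose and 3 fell, beside 18% higher and 15.9% lower over all genes, with a median log2 difference of 1.36. Chronic MEKi against chronic, 0 rose and 12 fell, with a median of −1.43, beside 7.65% lower over all genes. The 4 that fell most were Etv5 (−3.80, limma adjusted p = 4.54e-07), Egr2 (−3.42, 3.228e-09), Egr1 (−2.90, 9.407e-07) and Spry4 (−2.89, 0.002076). Spry4 was low, averaging 41.2 in acute, 113 in chronic and 15.4 ± 18.3 (SD) in chronic MEKi. Etv4, also among the 12, averaged 35.3, 115 and 18.3. Both averaged under 50 outside chronic, so the filter may have admitted them through that group. This may have favoured their fall, their higher values in chronic than in acute, and the medians above. Etv4 is among the 8 that rose, and the chronic against acute median of 1.36 is the value of Spry4. Etv5, Egr2 and Egr1 encode transcription factors, and Spry4 encodes a Sprouty inhibitor of receptor signalling. Dusp6, at −3.52, lay between Etv5 and Egr2.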

How the data were processed

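Nascent RNA was measured in 9 libraries of mouse CD8 T cells. The authors deposited signal per transcript in a gene-body and a pause-region table. Per the submitters' processing notes the tools were FastQC 0.12.0, Trim Galore 0.6.10, STAR 2.7.0a, SAMtools 1.19.2, deepTools 0.1.9 and R 4.1.2, with build mm10. The region coordinates, the counting and its use of strand are not given in the sources used here. Low deposited signal values (below 40 steps) were whole multiples, within 0.02 of a step, of a step of 0.764 to 1.06 per library. For the gene body, values of 4 steps were more frequent than 1 step in every library (2889 against 1931 in the acute replicate 1), so a step was not taken as a read, the depth in reads is unknown and no count model was used.

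Of 118482 rows, 117346 matched a GENCODE M21 (GRCm38) transcript by full identifier, another 383 matched once the version was dropped, and the 753 unmatched rows were not used. The tables held 0 columns of unmapped samples. Per gene, the row highest on average in the gene-body table was kept. Genes reaching a deposited signal of 50 in 3 or more libraries were kept. They were scaled by a trimmed mean of log ratios with no weights (30% of ratios and 5% of levels trimmed). They were tested as log2(signal + 5) with limma 3.58.1 (R 4.3.3), with a variance trend, robust estimation, and all 3 groups in the fit. The fit was also run on simulated data, with changes placed in few genes and in the chronic group alone. That run does not cover data in which many genes differ, as here. Fold changes are ratios of mean scaled signal, and log2 differences, which include the pseudocount, are smaller for low genes. P-values were adjusted by Benjamini-Hochberg over all genes of a table. Tables were handled with Python 3.11.15 and pandas 2.3.3.

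Named genes were the 10 members, the called genes of each list in chronic MEKi against chronic (up to the 4 largest), and the 5 genes of highest Pearson r with Dusp6 and with the other member of largest change, leaving out Gm, Rik and LOC names. Mapk14 was named after its values were seen. The members and lists were chosen with earlier results of these data known. Promoters of 9 of the 10 members were matched in RefSeq. Alternatives covered scaling, filter, pseudocount, length, variance model, replicate block, groups in the fit, leaving out each library, the row of Dusp1 and the genes behind the scale factors.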

Additional observations from a re-analysis of the deposited data

How the results depend on the processing

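The numbers of genes called in the gene body for chronic against acute (4) and for chronic MEKi against chronic (6) stayed within 1.5 times under every alternative run. That limit allows real changes. Under library totals and the deposited scale, Dusp6 and Dusp7 gained a call in chronic against acute. In chronic MEKi against chronic, Dusp4 and Dusp7 both lost the call under those 2 scalings. They also lost it without the filter, and without the variance trend and robust estimation. Leaving out 1 library gave 4 to 5 for chronic against acute, 5 to 6 for chronic MEKi against chronic, and 4 to 7 for chronic MEKi against acute (5). That last count was 3 under library totals (0 higher, 3 lower) and 3 on the deposited scale (1 higher, 2 lower). In the pause region, chronic against acute gave 1 in place of 2 without the filter and without the variance trend and robust estimation, and 1 to 2 with a library left out. Chronic MEKi against acute gave 1 in place of 2 under library totals, without the filter and without the trend and robust estimation. It gave 1 to 2 with a library left out. Over all genes, library totals gave 1096 higher and 6846 lower in chronic against acute (2875 and 2528 in the report's scaling), 1769 and 741 in chronic MEKi against chronic (1583 and 1219), and 955 and 4965 in chronic MEKi against acute (2291 and 1827).

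Some uncalled values changed sign. Chronic against acute, Dusp1 was −0.36 under library totals, −0.35 on the deposited scale, −0.033 with totals without ribosomal RNA-like rows, −0.16 in the compact row and −0.021 to 0.25 with a library left out. Dusp2 was −0.25 and −0.23, and Dusp10 −0.29 and −0.28, under library totals and the deposited scale. With a library left out Dusp6 ranged from −0.16 to 0.012 and Dusp7 from −0.20 to 0.00864. Chronic MEKi against chronic, Dusp10 ranged from −0.018 to 0.15. Chronic MEKi against acute, Dusp2 was −0.34, −0.30, −0.13 and −0.019 under library totals, the deposited scale, totals without ribosomal RNA-like rows and no filter, and −0.13 to 0.17 with a library left out. Dusp10 was −0.094 and −0.054 under library totals and the deposited scale. For pausing in chronic MEKi against chronic, Dusp5 was 0.052 under library totals and −0.18 to 0.014 with a library left out, and Dusp6 was −0.074 with a pseudocount of 0.5 and −0.11 to 0.41 with a library left out. The cause was not tested.

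With spliced length 5, 2 and 4 of the 10 genes kept their rank per kilobase in acute, chronic and chronic MEKi. The summed share of Dusp4, Dusp5 and Dusp6 was 42.5%, 60.4% and 42.4% with spliced length and 47.5%, 63.0% and 47.6% without division by length.

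Deviations of same-numbered libraries from their group means correlated at r −0.533 to 0.0979, and 2 of 9 libraries correlated best with their own number. Between acute and chronic, same-numbered pairs gave 0.0923, 0.0979 and 0.0747, and other pairs −0.0766 to −0.0119. With 3 libraries a group, such correlations cannot decide whether the numbers pair the libraries. With a replicate block the gene-body counts were 4, 6 and 7 (chronic against acute, chronic MEKi against chronic, chronic MEKi against acute), with Dusp1 and Dusp10 called in the last (limma adjusted p = 0.0414 and 0.0409). The pause-region counts were 2 in each. The compact row of Dusp1 and scale factors from all genes were chosen after seeing the data. Values of single genes under an alternative covered the gene body of the tested members and the pause region of Dusp4, Dusp5 and Dusp6. They also covered the pausing of Dusp5 and Dusp6 in chronic MEKi against chronic. Of these values, 759 kept direction and call, 32 lost the call, 18 gained it and 27 changed sign. Depth in reads is unknown, so the precision of low values such as those of Dusp8 could not be given.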
